A study of Homo sapiens with 60 samples.

Results

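HepG2 cells were exposed for 24 h to an ethanol extract of Aconiti Lateralis Radix Preparata, the processed lateral root of an aconite, and the highest dose (500 µg/mL, 3 libraries) was compared with the lowest (20 µg/mL, 3 libraries). These 6 of the 60 libraries of the series were taken by their labels. HepG2, an established line from a human liver tumour, still makes hepatocyte proteins and has a working p53 gene. RNA was also sequenced from the same line after a medium Aconiti dose (100 µg/mL, 3 libraries), after the DMSO vehicle (3 libraries), and after extracts of Cimicifugae Rhizoma and Citri Unshius Pericarpium, each at 500 and 20 µg/mL with 3 libraries a dose. The sample labels and the series text give different DMSO percentages, so none is stated here. All Aconiti doses carry 1 set number in the sample titles, the vehicle carries another, and Cimicifugae and Citri share yet another. An extract of Bupleuri Radix carries the Aconiti set number, but its high and low doses were 280 and 11.2 µg/mL. Against vehicle, therefore, set and treatment cannot be told apart. Nothing in the labels states that the replicates came from separate cultures, so a p-value here reflects library-to-library spread that may be technical.

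Aconite roots contain diterpenoid alkaloids such as aconitine, which act on voltage-gated sodium channels of nerve and heart. Metallothioneins are small cysteine-rich proteins that bind zinc and copper, and the metal-sensing factor MTF1 raises their transcription when free zinc is high. NRF2 and the aryl hydrocarbon receptor (AhR) turn on genes of detoxification. The tumour suppressor p53 turns on genes of cell cycle arrest and death, SREBP factors turn on sterol and fatty acid synthesis, and the unfolded protein response turns on chaperones of the endoplasmic reticulum (ER).

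The promoters of 5 genes are shown because these genes stand for groups that moved between the doses. Each is the 250 bases before the RefSeq start on GRCh38.p14, 5′ to 3′ on the gene's strand. In MT2A (chr16:56608334-56608583, plus strand), MT1X (chr16:56682220-56682469, plus strand) and SLC30A1 (chr1:211579162-211579411, minus strand) capitals mark the metal response element core, TGCGCNC or TGCACNC on either strand. In HSPA5 (chr9:125241344-125241593, minus strand) they mark the ER stress element, CCAAT followed by CCACG with 9 bases of any kind between them, and in GCLM (chr1:93909431-93909680, minus strand) the antioxidant response element core, TGACNNNGC, both searched on either strand.
MT2A: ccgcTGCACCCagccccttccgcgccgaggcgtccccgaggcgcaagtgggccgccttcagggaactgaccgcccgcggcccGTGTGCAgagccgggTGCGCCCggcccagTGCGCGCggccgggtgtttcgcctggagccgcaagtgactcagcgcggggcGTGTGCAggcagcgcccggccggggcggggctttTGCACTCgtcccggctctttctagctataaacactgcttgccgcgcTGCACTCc
MT1X: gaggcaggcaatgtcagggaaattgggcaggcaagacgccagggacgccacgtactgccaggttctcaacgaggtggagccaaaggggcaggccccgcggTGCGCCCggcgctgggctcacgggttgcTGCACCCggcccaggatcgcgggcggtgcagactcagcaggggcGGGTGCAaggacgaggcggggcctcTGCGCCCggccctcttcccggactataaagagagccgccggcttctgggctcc
SLC30A1: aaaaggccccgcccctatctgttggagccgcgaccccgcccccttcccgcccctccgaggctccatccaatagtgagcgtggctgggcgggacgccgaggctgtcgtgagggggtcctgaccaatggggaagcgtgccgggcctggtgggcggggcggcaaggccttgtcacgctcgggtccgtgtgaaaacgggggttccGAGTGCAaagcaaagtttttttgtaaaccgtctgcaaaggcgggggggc
HSPA5: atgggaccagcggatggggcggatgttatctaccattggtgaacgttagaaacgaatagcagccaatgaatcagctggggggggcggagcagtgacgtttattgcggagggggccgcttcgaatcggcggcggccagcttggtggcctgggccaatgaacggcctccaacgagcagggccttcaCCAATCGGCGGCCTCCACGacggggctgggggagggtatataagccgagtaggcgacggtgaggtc
GCLM: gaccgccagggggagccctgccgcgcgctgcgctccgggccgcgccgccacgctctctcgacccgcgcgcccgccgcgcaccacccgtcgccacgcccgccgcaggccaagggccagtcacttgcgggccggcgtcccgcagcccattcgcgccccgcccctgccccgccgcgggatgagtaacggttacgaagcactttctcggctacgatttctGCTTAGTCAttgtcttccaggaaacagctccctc

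The MT2A window held 7 matches to the metal response core, the MT1X window 4 and the SLC30A1 window 1. Of 35116 promoters of the same length 24.8% held at least 1 such match and 0.37% held 4 or more. Of the 8 metallothionein and zinc transport genes tested, 4 had a promoter in the table and 3 of these held the core. It was also held by 7 of 15 matched ER chaperone promoters and 5 of 11 matched NRF2 target promoters. Holding at least 1 match therefore does not mark out the metallothionein list. The number of matches per promoter was not compared between lists. The ER stress element occurred in 0.074% of promoters and in those of 6 of 15 matched ER chaperone genes, namely CALR, CANX, CRELD2, HSP90B1, HSPA5 and PDIA6. The antioxidant core occurred in 10.9% of promoters and in those of 2 of 11 matched NRF2 targets, GCLM and TXNRD1, and also once each in the MT2A, MT1X and SLC30A1 windows. It was held by 4 of 15 matched ER chaperone promoters as well, so it does not mark out the NRF2 list. Marked matches shared 0 bases with matches to the other motifs in these windows. A match is a description of letters and not a measured binding site.

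At 500 against 20 µg/mL, 2435 of 16675 tested genes were called (14.6%), with 1129 higher (6.77%) and 1306 lower (7.83%), by edgeR's quasi-likelihood test at a Benjamini-Hochberg adjusted p under 0.05. Each list count of high against low below is to be read beside these shares of all genes. Metallothioneins, sterol and fatty acid synthesis, ER chaperones and mitotic genes were lower at the high dose, and CYP1A1, NRF2 targets and p53 targets were higher. The median log2 fold change of all tested genes was 0.01, and 134 called genes changed at least 2-fold. For 1414 of the called genes the 100 µg/mL mean lay between the means of the other doses, for 260 beyond the high dose, and for 761 on the far side of the low dose. Without high-dose replicate 1, whose values for genes of wide genomic span are given below, 1610 genes were called.

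The libraries held 20963244 to 25995183 counts at the high dose and 24250310 to 29362530 at the low dose, within the 18015555 to 29549531 of the series. AFP, the fetal counterpart of albumin and a marker of this line, stood at 3999 to 4023 CPM (counts scaled to the library total, adjusted by edgeR's TMM factors) at the high dose and 4012 to 4275 at the low dose. Some other hepatocyte markers moved. In 6 fits that each left out 1 high or low library, HNF4A had log2 fold changes of 0.12 to 0.18 and TTR of 0.28 to 0.34. Each of these 2 genes was not called in 1 of the fits. ALB, albumin, had 0.07 to 0.10 and was not called in any of the 6. Of 18 secreted hepatocyte proteins 2 were higher and 7 lower, as given below. Of 16 markers of fibroblasts, blood and endothelium, PTPRC, KDR, LUM, DCN and POSTN had 0 counts in the Aconiti and vehicle libraries. The 2 tested fibroblast markers summed to 12.6 to 15.7 CPM at the high dose and 9.79 to 10.6 at the low dose. They moved in opposite directions, PDGFRB with a log2 fold change of 0.60 ± 0.11 (adjusted p = 1.6e-04) and COL1A1, with 31 counts at the high and 71 at the low dose, with −1.03 ± 0.34 (adjusted p = 0.0321). The 6 tested blood and endothelial markers, mostly LYZ, summed to 1228 to 1344 and 1345 to 1410.0. The 2 mitochondrial rRNAs took 3.41 to 3.51% of counts at the high dose and 2.58 to 2.73% at the low dose. The part of these differences in the results was not tested.

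Metallothionein RNA was lower at the high dose. MT1F had 7.92, 9.23 and 8.94 CPM at 500 µg/mL, 27.97, 28.04 and 28.6 at 100 µg/mL, 57.1, 66.8 and 66.2 at 20 µg/mL and 57.6, 52.8 and 58.5 in vehicle. The high and low doses did not overlap, and the fall was 7.30-fold (log2 fold change −2.87 ± 0.11, SE, adjusted p = 5.1e-23). MT2A had 139.9, 156 and 139 CPM at the high dose, 428, 363 and 386 at the medium dose, 522, 551 and 518 at the low dose and 382, 358 and 454 in vehicle, a fall of 3.67-fold between high and low (log2 fold change −1.87 ± 0.10, adjusted p = 2.3e-17). Its high-dose libraries were the lowest of the 4 groups and its low-dose libraries the highest.

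MT1G fell 6.29-fold, from 154 ± 7.07 to 24.6 ± 2.13 CPM (SD, n = 3; adjusted p = 1.2e-20 by edgeR). MT1E fell 5.54-fold, from 260.1 ± 11.9 to 46.9 ± 0.99 CPM, and MT1X 4.67-fold, from 71.4 ± 1.65 to 15.3 ± 0.554 CPM. MT1M had 171 counts over the 3 low-dose libraries and 8 over the 3 high-dose libraries, a ratio of 19.0 (95% exact interval 9.45 to 44.8, counting error only). The MT1 genes are near copies of each other, so the division of reads among them is uncertain. Against vehicle, the low dose was higher in MT1G (log2 fold change 0.67 ± 0.10, adjusted p = 4.4e-05), MT2A (0.41 ± 0.10, adjusted p = 0.00585) and MT1X (0.35 ± 0.09, adjusted p = 0.00712), where 5.51% of all genes were called higher and 4.38% lower. SLC30A1 was called lower in that comparison (−0.17 ± 0.04, adjusted p = 0.00575), so that of the 8 tested list members 3 were higher and 1 lower.

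Both zinc transporters of the list were called, in opposite directions. SLC30A1, which exports zinc from the cytosol, had 89.6, 81.1 and 78.8 CPM at the high dose and 112, 121 and 114 at the low dose (log2 fold change −0.48 ± 0.04, adjusted p = 3.9e-12). SLC39A10, which imports zinc, had 36.0, 35.8 and 36.9 CPM at the high dose, 22.6, 21.8 and 22.2 at the medium dose, 14.9, 14.1 and 14.9 at the low dose and 13.7, 14.7 and 13.7 in vehicle, a rise of 2.48-fold (adjusted p = 1.7e-15). Of the 8 list members tested, 7 fell and 1 rose, with a list median of −2.35. MT1H, the ninth member, did not pass the filter on low counts.

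**Figure D1:**
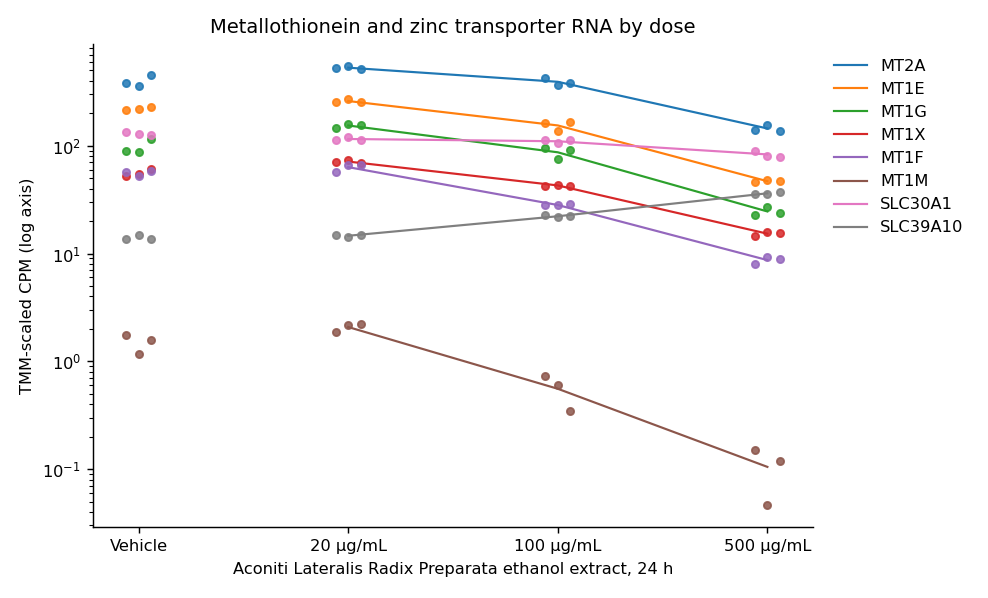
TMM-scaled CPM on a log axis for metallothioneins and zinc transporters in vehicle and at 20, 100 and 500 µg/mL, with 1 point per library and the group means joined. MT1F goes from 57.1 to 66.8 CPM at the low dose to 7.92 to 9.23 at the high dose, while SLC39A10 goes from 14.1 to 14.9 to 35.8 to 36.9.

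Genes of xenobiotic metabolism were higher at the high dose. CYP1A1, the monooxygenase classically induced through AhR, had 97.4, 86.4 and 83.0 CPM at 500 µg/mL, 27.0, 21.3 and 19.9 at 100 µg/mL, 16.0, 12.8 and 13.2 at 20 µg/mL and 12.6, 13.7 and 12.4 in vehicle. It rose 6.34-fold between the doses (log2 fold change 2.66 ± 0.12, adjusted p = 1.2e-19), and all 3 high-dose libraries stood above every other Aconiti or vehicle library. Of 8 AhR targets 5 rose and 0 fell, namely CYP1A1, CYP1A2, ALDH3A1, AHRR and NQO1 (4 without high-dose replicate 1). The list median was 1.19, or 1.07 with UGT1A6, which had 0 counts at the low dose and 6 at the high dose, held at the bound set by a floor of 3 counts over the group. These medians rest on genes with few counts. As log2(CPM + 0.5) relative to the low-dose mean, the AhR list median was 0.42, 0.42 and 0.48 in the high-dose libraries, and the fitted median of high against vehicle was 0.52. CYP1A2 rests on 12 against 2 counts (ratio 6.74, 95% exact interval 1.499 to 62.0, counting error only).

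Of 16 NRF2 targets tested 15 rose and 1 fell, with a list median of 0.57. GCLM, the modifier subunit of the enzyme that starts glutathione synthesis, had 106, 110.0 and 115 CPM at the high dose, 82.7, 72.9 and 78.0 at the medium dose and 55.2, 53.03 and 55.3 at the low dose. These 3 groups did not overlap, and the rise from low to high was 2.02-fold (adjusted p = 5.0e-20). HMOX1, which degrades heme, had 111, 129 and 118 CPM at the high dose, 68.5, 60.2 and 61.0 at the medium dose and 60.0, 62.3 and 62.9 at the low dose, a rise of 1.93-fold (adjusted p = 2.2e-18). AKR1B10, an aldo-keto reductase, rose 2.58-fold from 100.1 ± 2.62 to 258 ± 8.78 CPM.

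AKR1C1 and AKR1C2, reductases of steroids and aldehydes, both rose 2.08-fold, but their sequences are near-identical and the division of reads between them is uncertain. PTGR1, a prostaglandin reductase, rose 1.96-fold. Among 13 genes of heme and iron handling 7 rose and 0 fell, against 6.77% and 7.83% of all genes, with a list median of 0.33. They included FTH1, the ferritin heavy chain, at 3258 to 3322 CPM against 2350.0 to 2448, and ALAS1, which starts heme synthesis, with a log2 fold change of 0.44 ± 0.04. Of 9 tested targets of the drug-sensing receptors PXR and CAR, 5 rose and 0 fell, among them CYP3A7 (0.70 ± 0.11) and CYP3A5 (0.59 ± 0.12), steroid- and drug-metabolising enzymes. The lists overlap, since ALAS1 is in this list too and HMOX1, given above, is in the heme and iron list. Their counts are therefore not separate evidence.

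Of 16 p53 targets 15 rose and 0 fell (14 rose without high-dose replicate 1), with a list median of 0.50. TP53INP1, a stress protein of autophagy and cell death, had 62.1, 57.9 and 57.9 CPM at the high dose, 26.9, 26.7 and 30.03 at the medium dose, 27.8, 27.8 and 28.9 at the low dose and 30.1, 29.1 and 33.0 in vehicle. The high-dose libraries stood above the other 3 groups, and the rise over the low dose was 2.11-fold (log2 fold change 1.08 ± 0.07, adjusted p = 1.1e-16). MDM2, the ubiquitin ligase that limits p53, had 516, 496 and 512 CPM at the high dose, 319.7, 311 and 328 at the medium dose and 292, 302 and 298 at the low dose, a rise of 1.71-fold (adjusted p = 2.1e-16).

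CDKN1A, the cell cycle inhibitor p21, rose 1.46-fold from 85.7 ± 1.34 to 125 ± 1.22 CPM (adjusted p = 2.8e-12 by edgeR). BBC3, a pro-death member of the BCL2 family, rose 1.58-fold, and GDF15, a secreted stress factor, 1.53-fold. The member not called was BAX, a pore-forming death protein, at 124, 141 and 132 CPM against 112, 116 and 121 (log2 fold change 0.19 ± 0.08, adjusted p = 0.115).

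Genes of sterol synthesis and uptake fell as a group, 23 of 25 with 0 rising and a list median of −0.42. HMGCS1, which makes the substrate of HMG-CoA reductase, had 316, 319 and 334 CPM at the high dose, 386, 379.7 and 411 at the medium dose, 514, 530.4 and 537 at the low dose and 505, 505 and 484 in vehicle. The high-dose libraries were the lowest of the 4 groups, with the medium dose between them and the low dose. The fall from the low to the high dose was 1.63-fold (log2 fold change −0.71 ± 0.05, adjusted p = 1.2e-15). MVD, a later enzyme of the mevalonate pathway, fell 1.72-fold.

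The 2 members of the sterol list not called were PMVK, a mevalonate pathway kinase (0.02 ± 0.14), and INSIG1, a retention factor of SREBP (−0.76 ± 0.53). Of 10 genes of fatty acid synthesis tested 9 fell, with a median of −0.53. FASN, the fatty acid synthase, had 1231, 1402 and 1306 CPM at the high dose, 1916, 1964 and 1768 at the low dose and 1411, 1404 and 1472 in vehicle, with log2 fold changes of −0.52 ± 0.11 for high against low (adjusted p = 4.6e-04) and 0.40 ± 0.11 for low against vehicle (adjusted p = 0.0126). SREBF1, which encodes an SREBP factor, had 56.4 to 65.4 CPM at the high dose, 91.4 to 94.9 at the low dose and 59.5 to 61.6 in vehicle.

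Of 16 ER chaperone genes 15 fell and 0 rose, with a list median of −0.32, and 11 fell without high-dose replicate 1. HSPA5, the chaperone BiP, had 952, 976 and 982 CPM at the high dose, 1505, 1455 and 1484 at the medium dose, 1395, 1383 and 1410.0 at the low dose and 1476, 1473 and 1457 in vehicle. Its high-dose libraries lay below every library of the other 3 groups, and the fall from the low dose was 1.44-fold (log2 fold change −0.53 ± 0.03, adjusted p = 1.4e-16). DNAJB11, a co-chaperone of BiP, fell 1.48-fold from 131 ± 2.42 to 89.0 ± 0.784 CPM, and MANF, a secreted ER stress protein, 1.45-fold.

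Among 12 cytosolic heat shock genes 4 fell (3 without high-dose replicate 1) and 0 rose, where 7.83% of all genes fell and 6.77% rose. Targets of ATF4, the factor of the integrated stress response, were divided, with 3 of 16 higher and 6 lower (4 lower without high-dose replicate 1). GDF15, SESN2 and SLC7A11, the cystine transporter, rose, and GDF15 and SLC7A11 are also targets of p53 and NRF2. TRIB3 (−0.35 ± 0.06), a stress pseudokinase, and PSAT1 (−0.27 ± 0.04), PHGDH (−0.23 ± 0.06) and ASNS (−0.21 ± 0.06), enzymes of serine and asparagine synthesis, fell, as did STC2 and DDIT3. DDIT3, the stress factor CHOP, was not called in 4 of 6 fits that each left out 1 library of either dose (adjusted p 0.043 to 0.17).

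All 18 mitosis genes tested fell, or 17 without high-dose replicate 1, with a list median of −0.36. PLK1, a mitotic kinase, had 193, 196 and 185 CPM at the high dose, 282, 290.3 and 272 at the medium dose, 277, 280.3 and 272 at the low dose and 253, 244 and 262 in vehicle. The high-dose libraries lay below the other 3 groups, and the fall from the low dose was 1.45-fold (adjusted p = 5.1e-10). UBE2C, a ubiquitin-conjugating enzyme of mitotic exit, fell 1.57-fold from 54.4 ± 4.03 to 34.5 ± 1.45 CPM, and TOP2A, a topoisomerase, 1.35-fold. Of 18 DNA replication genes 11 fell and 0 rose, with a median of −0.18, among them MCM7, a helicase subunit (−0.31 ± 0.04). The count lower was 6 without high-dose replicate 1 and 15 with offsets for GC content and length. In bulk RNA, fewer cells in a phase and less RNA per cell cannot be told apart.

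**Figure D2:**
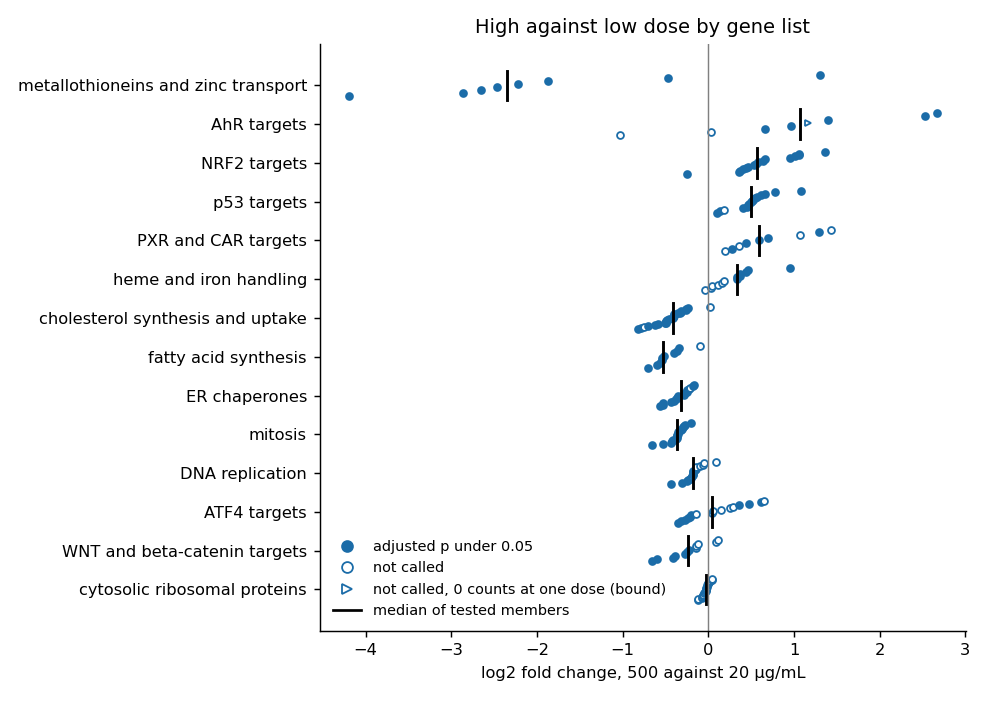
Log2 fold change at 500 against 20 µg/mL for the tested members of the gene lists, 1 symbol per gene, with called genes filled, genes not called open and the list medians marked. The gene with 0 counts at the low dose, UGT1A6, is drawn at its bound. The metallothionein list lies lowest, with a median of −2.35, and NRF2 and p53 targets lie above 0, with medians of 0.57 and 0.50.

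Among 12 tested WNT and beta-catenin targets 7 fell (5 without high-dose replicate 1) and 0 rose, against 7.83% and 6.77% of all genes. The list median was −0.24, and between the same doses −0.19 in Cimicifugae and −0.08 in Citri. The dose difference was called lower in Aconiti than in Cimicifugae for 2 of the 12 and higher for 1. Against Citri 3 were lower and 0 higher. LGR5, a receptor of WNT-responsive cells, fell 1.58-fold from 137 ± 6.08 to 86.9 ± 7.44 CPM, and DKK1, a secreted WNT antagonist, had a log2 fold change of −0.60 ± 0.06. Of 18 secreted hepatocyte proteins 2 were higher, near the 6.77% of all genes, and 7 lower, against 7.83% (4 lower without high-dose replicate 1). HP, haptoglobin, fell 1.61-fold from 199.9 ± 6.86 to 124 ± 5.29 CPM, and the 2 that rose were AMBP (0.36 ± 0.07) and TTR (0.30 ± 0.09), which encode plasma proteins, though TTR was not called in 1 of 6 fits without 1 library (adjusted p 0.0181 to 0.0565). FABP1, the liver fatty acid binding protein, had 53.1, 56.2 and 49.7 CPM at the high dose and 85.9, 89.7 and 88.6 at the low dose.

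IGFBP1, a secreted binding protein of insulin-like growth factors, had 114, 109 and 104 CPM at the high dose, 137, 110.4 and 104 at the medium dose and 54.6, 48.3 and 47.2 at the low dose, a rise of 2.18-fold (adjusted p = 5.3e-08). G6PC1, the catalytic subunit of glucose-6-phosphatase, had a log2 fold change of 0.87 ± 0.18, and PCK1, the cytosolic PEP carboxykinase, −0.36 ± 0.14 (adjusted p = 0.0692, not called). Other large rises were those of NECTIN4, a cell adhesion protein (17.8 ± 1.35 against 7.29 ± 0.188 CPM), and SLC5A11, a sodium-coupled inositol transporter (5.86 ± 0.239 against 2.56 ± 0.412 CPM). FAM156B was called at an adjusted p of 0.0261 but not in 5 of 6 fits that each left out 1 library of either dose (adjusted p 0.0283 to 0.104), and reads of this gene may be shared with a near-identical copy. Large falls were also seen in SLC13A3, a dicarboxylate transporter (26.1 ± 1.303 against 48.6 ± 2.88 CPM), and in TNS4, a focal adhesion protein, which had 13.8 to 16.2 CPM at the high dose, 43.4 to 54.0 at the medium dose and 26.5 to 27.5 at the low dose.

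Of 13 voltage-gated sodium channel genes, the family on which aconitine acts, 6 passed the filter on low counts and 1 was called, SCN8A. This is 1 of 6, near the 14.6% of all genes, and is no result about the family. SCN8A stood at 2.17, 2.15 and 2.18 CPM against 2.79, 3.75 and 3.27 (log2 fold change −0.59 ± 0.18, adjusted p = 0.0201). It was not called in 4 of the 6 fits without 1 library (adjusted p 0.0141 to 0.119), that without high-dose replicate 1 among them. Of 9 sodium, potassium and calcium pump genes tested 3 rose, among them ATP1B1, a sodium pump subunit (0.22 ± 0.03), and 1 rose without high-dose replicate 1.

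The lists differed in where the medium dose lay, for which no test was run. As log2(CPM + 0.5) relative to the low-dose mean, the median p53 target stood at 0.56, 0.46 and 0.48 in the high-dose libraries and at −0.04, −0.06 and 0.01 in the medium-dose libraries. Mitosis genes stood at −0.32, −0.38 and −0.38 and at −0.03, −0.04 and −0.0035, and ER chaperones at −0.37, −0.30 and −0.30 and at 0.04, 0.06 and 0.05. In these 3 lists the high-dose libraries stood apart from both lower doses.

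NRF2 targets stood at 0.57, 0.54 and 0.58 in the high-dose libraries and already at 0.17, 0.15 and 0.17 in the medium-dose libraries. Sterol genes stood at −0.40, −0.44 and −0.42 and at −0.27, −0.26 and −0.22. In these 2 lists the medium-dose medians lay between those of the other doses.

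**Figure D3:**
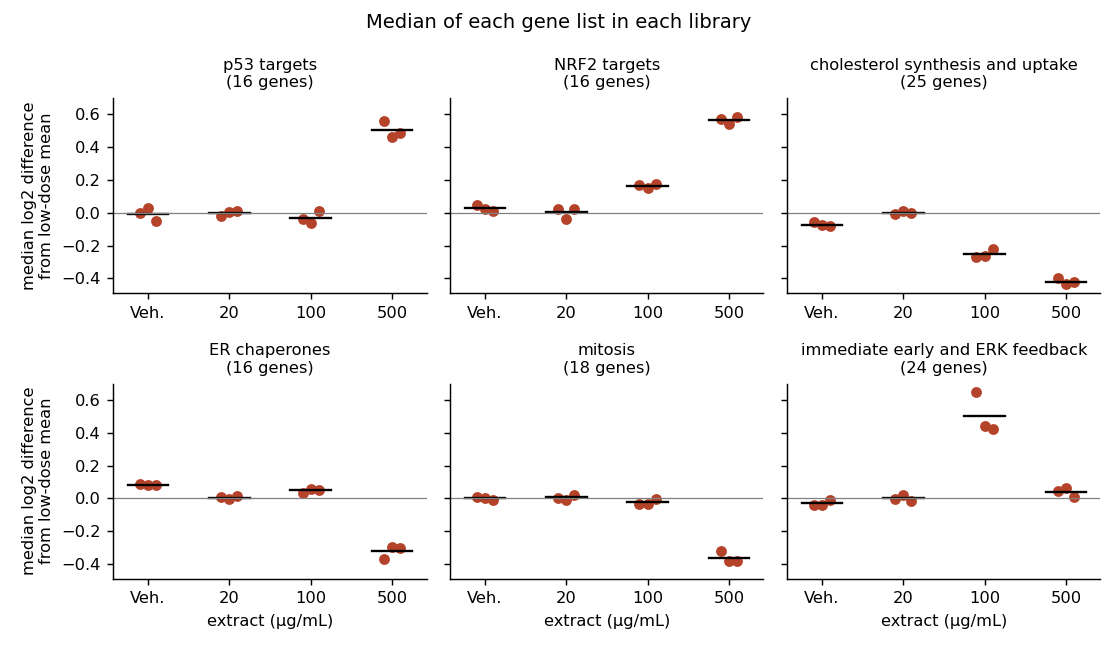
Median log2 difference from the low-dose mean for 6 gene lists, with 1 point per library. For p53 targets the high-dose libraries stand at 0.56, 0.46 and 0.48, away from the other groups, while for immediate early genes, a list chosen after the values were seen, the medium-dose libraries are highest at 0.65, 0.44 and 0.42.

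Against vehicle, whose libraries carry another set name, 3874 genes were called at the high dose (23.2%, with 11.2% higher and 12.0% lower) and 1650 at the low dose (9.90%, with 5.51% higher and 4.38% lower). These comparisons share libraries with that of the 2 doses, so their values only place the groups. The high-dose list medians were −1.93 for metallothioneins and zinc transport, 0.58 for NRF2 targets, 0.50 for p53 targets, −0.37 for sterol genes, −0.36 for ER chaperones and −0.34 for mitosis genes. The corresponding low-dose medians were 0.29, −0.05, 0.01, 0.08, −0.10 and −0.01.

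Cimicifugae and Citri, given at the same doses, allowed a test of whether the high-against-low log2 fold change of a gene differed from that in Aconiti. The difference was called for 1084 genes against Cimicifugae (6.50%, with 2.39% higher and 4.11% lower in Aconiti) and for 1136 against Citri (6.81%, with 3.23% higher and 3.59% lower). Both tests use the same Aconiti libraries. Of 16 p53 targets 12 were higher in Aconiti than in Cimicifugae and 14 than in Citri, whose own list medians were 0.03 and −0.05. TP53INP1 had log2 fold changes of 1.08 in Aconiti, 0.05 in Cimicifugae and −0.11 in Citri, with differences of 1.02 ± 0.10 (adjusted p = 1.7e-10) and 1.18 ± 0.10 (adjusted p = 2.5e-12). Of 25 sterol genes 22 were lower in Aconiti than in Cimicifugae and 19 than in Citri, and HMGCS1 had log2 fold changes of −0.71, −0.04 and −0.17 in Aconiti, Cimicifugae and Citri.

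MT1F had log2 fold changes of −2.87 in Aconiti, −1.44 in Cimicifugae and −0.37 in Citri, with differences of −1.43 ± 0.15 (adjusted p = 4.5e-09) and −2.49 ± 0.15 (adjusted p = 3.1e-16). Of the 8 metallothionein and zinc transport genes 5 were lower in Aconiti than in Cimicifugae and 7 than in Citri. Of 16 ER chaperones 9 and 12 were lower. Mitosis genes had 7 of 18 lower than in Cimicifugae, whose own median was −0.17, and 17 lower than in Citri, whose own median was 0.05. In Bupleuri, at its own doses, the high-against-low list medians were −0.62 for mitosis genes, 1.07 for NRF2 targets and −0.23 for ER chaperones. They were −1.69 for metallothioneins and zinc transport, −0.02 for p53 targets and 0.21 for sterol genes. No test of Bupleuri against Aconiti was made.

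NRF2 targets differed mainly from Citri, where 11 of 16 had the higher and 1 the lower value in Aconiti. Against Cimicifugae 0 were higher and 3 lower. HMOX1 had log2 fold changes of 0.95 in Aconiti, 1.42 in Cimicifugae and 0.02 in Citri, with differences of −0.47 ± 0.07 (adjusted p = 1.8e-05) and 0.93 ± 0.08 (adjusted p = 2.0e-12). CYP1A1 rose less in Aconiti than in either, with 2.66, 3.65 and 3.49 and differences of −0.99 ± 0.17 (adjusted p = 1.1e-04) and −0.82 ± 0.18 (adjusted p = 0.00192). Of 22 genes picked for having the largest changes in Aconiti, 13 differed from Cimicifugae and 20 from Citri, counts that are raised by the choice, since the difference contains the Aconiti change.

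**Figure D4:**
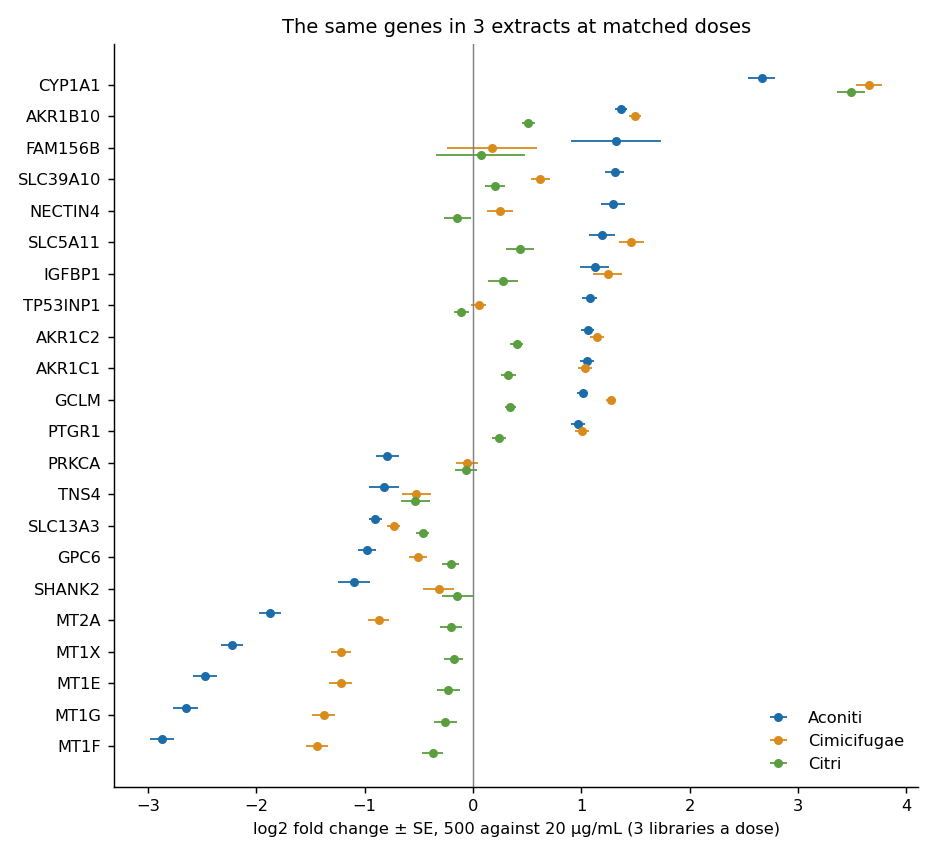
Log2 fold change ± SE at 500 against 20 µg/mL in Aconiti, Cimicifugae and Citri, 3 libraries a dose, for 22 genes with the largest changes in Aconiti. MT1F lies at −2.87, −1.44 and −0.37, and CYP1A1 at 2.66, 3.65 and 3.49.

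Genes that span long stretches of the genome also differed between the doses. This grouping was chosen after the values were seen, and no test of the grouping itself is given. The counts of lower and higher genes come from the tests of single genes. SHANK2, a synaptic scaffold protein (chromosome 11, 70467856 to 71252577, as GENCODE 29 places it on GRCh38), had 17.9, 31.0 and 33.4 CPM at the high dose, 43.0, 50.8 and 45.3 at the medium dose, 59.8, 61.1 and 54.7 at the low dose and 56.8, 52.3 and 53.6 in vehicle. High-dose replicate 1 was the lowest, but the other high-dose libraries were also below those of the other groups. GPC6, a cell surface proteoglycan, had 30.9, 41.0 and 42.5 CPM at the high dose and 73.2, 77.8 and 73.5 at the low dose. PRKCA, protein kinase C alpha, had 57.4, 75.5 and 77.5 CPM at the high dose and 123, 123 and 117 at the low dose (log2 fold change −0.79 ± 0.10).

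Of 131 tested protein-coding genes over 500 kb, 62 were lower at the high dose (47.3%, against 7.83% of all genes) and 2 higher, with a median log2 fold change of −0.40. Without high-dose replicate 1, 36 were lower and the median was −0.29. Of 720 genes of 200 to 500 kb 23.9% were lower, and of 3633 genes of 20 to 50 kb 7.35%. In the 102 genes over 500 kb with at least 1 CPM, the medians relative to the low-dose mean were −0.61, −0.29 and −0.30 in the high-dose libraries, −0.13, −0.06 and −0.03 in the medium-dose libraries and 0.06, 0.04 and 0.06 in vehicle. The high-dose libraries of Cimicifugae stood at −0.15, −0.04 and −0.02 and those of Citri at −0.12, −0.04 and −0.04, each relative to its own low dose. Against Cimicifugae the dose difference was called lower in Aconiti for 33 of the 131 genes and higher for 2. The shares of all genes were 4.11% and 2.39%. For Citri 31 were lower and 3 higher, where the shares were 3.59% and 3.23%.

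**Figure D5:**
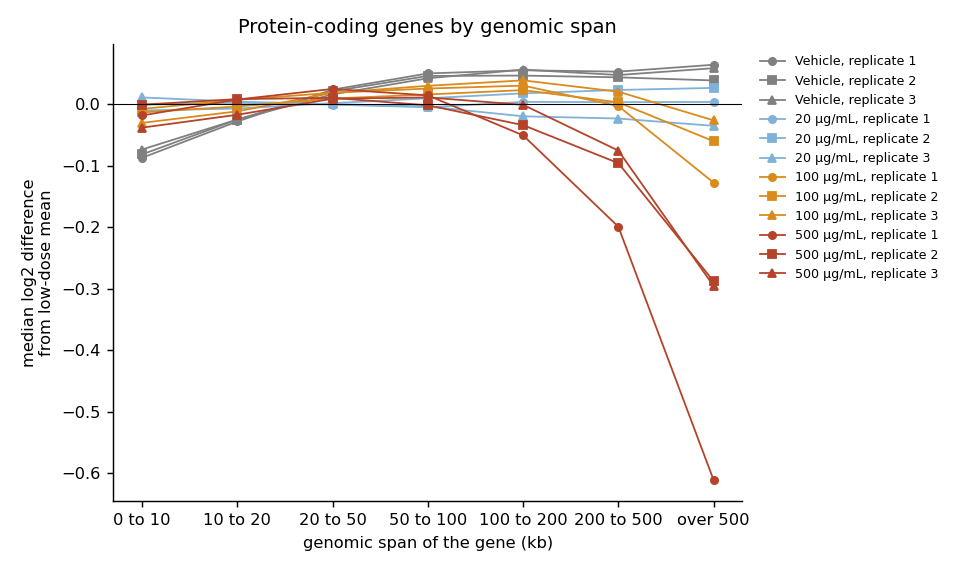
Median log2 difference from the low-dose mean for protein-coding genes averaging at least 1 CPM, by genomic span in kb, with 1 line per library. Over 500 kb the high-dose libraries reach −0.61, −0.29 and −0.30.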

How the data were processed

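The authors deposited 1 table of expected counts per gene, made with RSEM 1.3.3 on STAR 2.7.3a alignments to GRCh38 after FastQC 0.11.9 and Trim Galore 0.6.5, per the submitters' processing notes. Libraries were directional and read as 100 bp pairs, per the labels. The table held 60675 genes in 267 columns, of which 207 belong to no sample used here. Expected counts were rounded to whole numbers (8.75% of values were not whole). Genes were filtered with edgeR's filterByExpr, scaled by TMM and fitted with edgeR 4.0.16 (R 4.3.3) by quasi-likelihood over 57 libraries of 22 groups, which left 16675 genes. Contrasts were adjusted by Benjamini-Hochberg within each comparison and called under 0.05. SEs are the log2 fold change divided by the root of F. Counts were simulated for all 57 libraries from group means and the spread of the shared fit. The high-dose means were set to the low-dose means before single genes were changed. Of 16581 genes tested in these data, the fit recovered 23 of 50 changed 1.25-fold and 39 of 50 changed 1.5-fold. It recovered 45 of 50 changed 2-fold and 50 of 50 changed 4-fold, with 3 false calls. The 3 false calls are over all folds together. The changed genes averaged at least 1 CPM at the low dose and were in total far fewer than the 2435 called in the real data. No simulated library was made to deviate from its group. For these reasons the counts need not hold for the real libraries. Symbols and positions came from tables of GENCODE 29 and RefSeq, and promoter sequences from RefSeq. Named genes were the 12 largest called rises and 12 largest falls with a mean of 5 CPM or more in either dose group and no overlap of the dose groups, leaving out pseudogenes and read-through genes, from each list the called members that changed most (at most 3), and CYP1A1, HMOX1, DDIT3, CDKN1A, ALB, PCK1 and IGFBP1. A few genes that met this rule are not reported here, 2 of them among the 24 largest changes. Other list members named were chosen after their values were seen. The members and lists were chosen with earlier results of these data known. Replicate libraries differed by more than sampling noise (chi-square per degree of freedom 2.02 to 3.63).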

Additional observations from a re-analysis of the deposited data

Results flagged for a closer look

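For 20 of 22 genes chosen for having the largest changes in Aconiti, the high-against-low log2 fold change differed from that in at least 1 of the other extracts by the test of the difference itself (edgeR, adjusted p under 0.05 over 16675 genes, of which 6.50% were called against Cimicifugae and 6.81% against Citri). The choice raises this count, since each difference contains the Aconiti change by which the genes were picked, so the values are a description. The differences are given as Aconiti minus Cimicifugae and then Aconiti minus Citri, with 3 libraries in each dose group. Metallothioneins fell more in Aconiti, with differences of −1.43 and −2.49 for MT1F, −1.28 and −2.40 for MT1G, −1.25 and −2.24 for MT1E, −1.01 and −2.04 for MT1X and −1.0 and −1.67 for MT2A. NECTIN4, TP53INP1 and SLC39A10 rose more, with differences of 1.04 and 1.43 for NECTIN4, 1.02 and 1.18 for TP53INP1 and 0.69 and 1.10 for SLC39A10. Genes over 500 kb gave −0.78 and −0.95 for SHANK2, −0.73 and −0.73 for PRKCA and −0.47 and −0.77 for GPC6. CYP1A1 rose less in Aconiti than in either extract, with differences of −0.99 and −0.82. GCLM stood between them, at −0.26 against Cimicifugae and 0.67 against Citri.

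Against Citri alone the differences called were 0.86 for AKR1B10, 0.75 for SLC5A11, 0.85 for IGFBP1, 0.65 for AKR1C2, 0.73 for AKR1C1 and 0.73 for PTGR1, all higher in Aconiti, and −0.44 for SLC13A3. A difference called against Citri and not against Cimicifugae is not a test of Cimicifugae against Citri, which was not made.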

How the results depend on the processing

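The number of genes called moved with several settings. Fitted on the compared groups alone, 3828 genes were called for high against low, 5581 for high against vehicle and 4161 for low against vehicle. The differences from Cimicifugae and Citri gave 2286 and 2269. Bupleuri low-dose replicate 3 is a library outside these groups that enters the shared spread. Without it (chosen after seeing the data) the counts were, in the same order, 3693, 5229, 2927, 2184 and 2196. Offsets for GC content and length gave, in this order, 3544, 4436, 1171, 1812 and 2130. The main fit gave 2435, 3874, 1650, 1084 and 1136. Leaving out 1 library at a time gave 1610 to 2048 for high against low, 2934 to 3219 for high against vehicle, 833 to 1178 for low against vehicle, 725 to 1011 against Cimicifugae and 859 to 989 against Citri. High against low was lowest without high-dose replicate 1 (1610), and low against vehicle fell to 890 and 1058 without low-dose replicates 1 and 2 and to 833 and 1027 without vehicle replicates 1 and 2. The causes were not tested, except that fewer libraries were fitted.

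Same-numbered high and low libraries correlated at 0.04, 0.16 and −0.02 in their deviations, so the numbers were not taken to pair them. With a replicate block 2448, 3957, 1698, 1081 and 1166 genes were called in the 5 comparisons. DESeq2 1.42.0, RLE scaling and no filter gave 2400, 2438 and 2118 genes for high against low. Of 114 genes that were named or read by rule, 89 were called in each fit that left out 1 high or low library, and 0 reversed under any setting run. Genes over 200 kb in place of 500 kb gave a median difference of −0.15 in place of −0.40, a span chosen after seeing the data. Several list counts for high against low rose under other settings. With GC and length offsets 16 of 16 ER chaperones, 15 of 18 DNA replication genes and 10 of 12 WNT targets fell. The same counts were found without Bupleuri low-dose replicate 3, where 16 of 16 p53 targets rose, BAX among them. Other lists, such as sterol genes with 23 of 25 lower, kept their counts. Low counts limit MT1M, CYP1A2, UGT1A6 and INSIG1.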

Other observations

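Some genes had their highest or lowest values at the medium dose, which entered no test. The lists used here were put together after the values were seen, and their values are given without a test. Immediate early genes and feedback genes of ERK signalling were highest at 100 µg/mL, where the median of 24 genes stood at 0.65, 0.44 and 0.42 on the log2 scale relative to the low-dose mean, against 0.05, 0.07 and 0.01 at the high dose. EGR1, a transcription factor induced within minutes by growth factors, had 43.6, 38.4 and 34.7 CPM at the medium dose, 15.0, 13.2 and 14.4 at the high dose and 12.4, 12.8 and 12.0 at the low dose. FOS, another such factor, had 3.55, 2.90 and 2.63 CPM at the medium dose, 1.72, 1.73 and 1.07 at the high dose and 0.571, 0.571 and 0.603 at the low dose. AQP3, a water and glycerol channel, had 16.2, 14.6 and 11.9 CPM at the medium dose, 8.70, 8.30 and 8.27 at the high dose and 4.97, 4.73 and 3.76 at the low dose. For EGR1, FOS and AQP3 the medium-dose libraries lay above all high- and low-dose libraries.

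Genes of hepatocyte metabolism were lowest at the medium dose. The median of 13 tested genes stood at −0.62, −0.67 and −0.56 in the medium-dose libraries and at −0.23, −0.24 and −0.15 in the high-dose libraries. SULT2A1, a sulfotransferase of steroids and bile acids, had 102, 104 and 116 CPM at the medium dose, 183, 181 and 183 at the high dose and 177, 175 and 173 at the low dose. NR1H4, the bile acid receptor FXR, had 43.2, 47.3 and 52.5 CPM at the medium dose, 51.8, 54.9 and 57.3 at the high dose and 74.3, 74.8 and 81.0 at the low dose. The medium and high doses overlapped for NR1H4 and not for SULT2A1.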
